A study of Mus musculus with 6 samples.

Results

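Genes whose transcription responds to interferon, *Isg15*, *Ifit1*, *Ifit3*, *Irf7*, *Bst2*, *Oasl2*, *Rsad2*, *Ifitm3* and *Irf1*, were followed through 6 stromal populations sorted from the mouse omentum. They were taken by symbol, and 9 of 9 were found among 23352 gene symbols. *Isg15*, *Ifit1*, *Ifit3*, *Irf7*, *Oasl2* and *Rsad2* were higher in both CD105- populations, P4 and P5, than in every CD105+ population, P1 to P3. Over all genes, 38% were higher in both P4 and P5 than in P1 to P3. *Rsad2*, *Oasl2* and *Ifit3* were highest in the CD140a low population, P6, where *Irf7* was back at the level of P2 and P3. *Ifit1*, *Bst2*, *Ifitm3* and *Irf1* varied by less than 2-fold across the 6 populations in the deposited values, though *Irf1* passed 2-fold after division by *Gapdh*. *Bst2* and *Ifitm3* were also higher in P4 and P5 than in P1 to P3 as deposited, but not after that division. *Bst2* also lost this with quantile normalization, and *Ifitm3* with median-of-ratios scaling.

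Type I and type III interferons act through receptors and JAK kinases on a factor complex that holds IRF9 and binds a promoter element called the interferon-stimulated response element (ISRE). Interferon-gamma acts mainly on promoters with gamma-activated sites (GAS). The induced proteins block the entry, translation and replication of viruses, and many are also made at a low tonic level without infection. The omentum is a fatty peritoneal fold that holds milky spots, clusters of leukocytes supported by stromal cells and covered by mesothelium.

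RNA was sequenced from 6 populations of the omental stroma of wild-type (WT) C57BL/6 mice, with 1 library each and no treatment in the labels. By the study's sorting scheme, P1, P2 and P3 were CD45- CD140a+ CD105+ cells with high, intermediate and low aldehyde dehydrogenase (ALDH) activity. P4 and P5 were CD45- CD140a+ CD105- cells with intermediate and low ALDH activity, and P6 was CD45- CD140a low and ALDH positive. CD140a is the PDGF receptor alpha and CD105 is endoglin. The age of the mice and whether mice were pooled are not given in the sources used here. The deposited values were FPKM, read counts scaled to the length of the transcript and to the number of mapped reads in the library. Depth estimated from the steps between low values ran from 37 M reads in P6 to 61.7 M reads in P5. Since each population had 1 library, the spread between mice could not be measured and no p-value was computed. Intervals printed beside ratios are 95% intervals for counting error only, and ratios were taken after adding 0.1 FPKM.

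The genes of the surface markers followed the gates. *Eng*, which encodes CD105, lay between 42.6 and 52.4 FPKM in P1 to P3 and between 0.231 and 0.728 FPKM in P4 to P6. *Pdgfra*, which encodes CD140a, lay between 117 and 154 FPKM in P1 to P5 and at 5.36 FPKM in P6. *Aldh1a2*, which encodes an ALDH enzyme, was at 469, 78.8, 134, 285, 145 and 209 FPKM in P1 to P6. It did not follow the ALDH gates throughout, being lower in P2 than in P3. It was 3.61-fold higher in P4 than in P2 and 1.09-fold higher in P5 than in P3. P6 carried mesothelial genes beside its stromal label, with *Upk3b*, a uroplakin of mesothelium, at 1140 FPKM and *Msln*, mesothelin, at 171 FPKM.

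The start regions are shown for *Isg15*, *Ifit3*, *Rsad2* and *Oasl2*, together with *Irf1* and *Bst2*, which varied by less than 2-fold as deposited. The windows of *Irf7*, *Ifit1* and *Ifitm3* were searched but are not shown. Windows of 300 bases around the RefSeq start (GRCm38.p6, the build also called mm10), read 5′ to 3′ on the gene's strand, were searched on both strands for the ISRE core GAAANNGAAA, whose reverse complement is TTTCNNTTTC, and for the GAS element TTCNNNGAA. Capitals mark the matches. The windows were chr4:156200769-156201068 (minus strand) for *Isg15*, chr19:34583279-34583578 (plus) for *Ifit3*, chr12:26456403-26456702 (minus) for *Rsad2*, chr5:114896684-114896983 (plus) for *Oasl2*, chr8:71537423-71537722 (minus) for *Bst2* and chr11:53769764-53770063 (plus) for *Irf1*.
Isg15: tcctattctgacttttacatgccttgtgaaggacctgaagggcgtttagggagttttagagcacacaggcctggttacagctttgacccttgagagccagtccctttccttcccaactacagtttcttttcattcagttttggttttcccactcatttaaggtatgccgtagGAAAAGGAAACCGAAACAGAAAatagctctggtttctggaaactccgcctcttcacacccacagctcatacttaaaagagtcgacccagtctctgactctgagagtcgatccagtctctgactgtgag
Ifit3: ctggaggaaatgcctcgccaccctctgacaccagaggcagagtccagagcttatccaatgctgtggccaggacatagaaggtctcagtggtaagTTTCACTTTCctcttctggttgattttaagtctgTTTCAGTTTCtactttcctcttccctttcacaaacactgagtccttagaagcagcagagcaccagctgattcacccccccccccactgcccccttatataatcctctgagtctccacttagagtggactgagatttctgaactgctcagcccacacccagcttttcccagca
Rsad2: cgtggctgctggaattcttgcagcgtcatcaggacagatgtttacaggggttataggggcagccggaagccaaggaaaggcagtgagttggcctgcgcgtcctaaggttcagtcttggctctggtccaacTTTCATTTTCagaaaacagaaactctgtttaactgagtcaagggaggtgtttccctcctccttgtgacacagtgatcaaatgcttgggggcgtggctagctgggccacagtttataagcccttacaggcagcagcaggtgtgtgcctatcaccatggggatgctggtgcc
Oasl2: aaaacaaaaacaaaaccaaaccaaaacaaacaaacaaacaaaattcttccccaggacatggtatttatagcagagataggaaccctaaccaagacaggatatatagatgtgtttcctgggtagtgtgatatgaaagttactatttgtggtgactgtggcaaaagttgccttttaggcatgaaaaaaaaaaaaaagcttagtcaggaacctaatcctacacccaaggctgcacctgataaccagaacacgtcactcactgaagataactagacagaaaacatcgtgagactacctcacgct
Bst2: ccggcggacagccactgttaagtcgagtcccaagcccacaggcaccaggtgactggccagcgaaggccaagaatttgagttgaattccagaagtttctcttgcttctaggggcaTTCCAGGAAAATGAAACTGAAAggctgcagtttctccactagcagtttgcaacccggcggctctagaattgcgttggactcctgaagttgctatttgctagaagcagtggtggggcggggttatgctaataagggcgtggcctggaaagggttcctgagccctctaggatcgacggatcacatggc
Irf1: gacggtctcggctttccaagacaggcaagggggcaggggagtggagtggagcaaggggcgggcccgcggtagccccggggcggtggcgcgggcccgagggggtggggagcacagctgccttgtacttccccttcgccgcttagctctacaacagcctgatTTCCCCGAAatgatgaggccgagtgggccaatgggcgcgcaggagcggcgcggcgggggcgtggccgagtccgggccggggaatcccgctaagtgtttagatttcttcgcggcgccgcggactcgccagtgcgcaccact

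*Isg15* held 3 overlapping ISRE cores whose first bases lay 78, 72 and 66 bases upstream of the start. *Ifit3* held 2, at 156 and 122 bases upstream, and *Ifit1* also held 2, at 104 and 85 bases upstream. *Rsad2* held 1, at 120 bases upstream. *Bst2* held 2, at 130 and 124 bases upstream, and the first of them overlapped a GAS match at 136 bases upstream. *Ifitm3* held 2 ISRE cores and 1 GAS match, all just downstream of the start, and the GAS match overlapped an ISRE core. *Irf1* held 1 GAS match, 90 bases upstream, and no ISRE core. No match to either element lay in the windows of *Irf7* and *Oasl2*. The ISRE core was present in 6 of the 10 member windows, *Irf1* having 2 windows, against 3.44% of all 32851 windows of this length. The GAS element was present in 3 of the 10, against 8.30% of all windows. Beside the levels given next, members with no match were *Oasl2*, which varied 5.47-fold between the highest and the lowest population, and *Irf7* (2.27-fold). Those with an ISRE core were *Rsad2* (6.05-fold), *Ifit3* (4.04-fold), *Isg15* (2.52-fold), *Ifit1* (1.78-fold), *Ifitm3* (1.48-fold) and *Bst2* (1.38-fold). *Irf1*, with a GAS match alone, varied 1.85-fold. Sequence outside these windows was not searched, and a link between matches and levels was not tested.

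A difference of at least 2-fold between the highest and the lowest population was seen in 5 of 9 members, against 37.4% of the 12904 genes that reached 1 FPKM in any population. They were *Rsad2* (6.05-fold), *Oasl2* (5.47-fold), *Ifit3* (4.04-fold), *Isg15* (2.52-fold) and *Irf7* (2.27-fold). *Irf1* varied 1.85-fold, *Ifit1* 1.78-fold, *Ifitm3* 1.48-fold and *Bst2* 1.38-fold. P5 held the highest level of 5 members, P6 of 3 and P4 of 1. After division by *Gapdh*, *Ifit3*, *Oasl2*, *Rsad2* and *Irf1* passed 2-fold and *Isg15* and *Irf7* did not. Over all genes, P5 held the highest level of 24.2%, P6 of 37.7% and P4 of 6.33%.

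**Figure D1:**
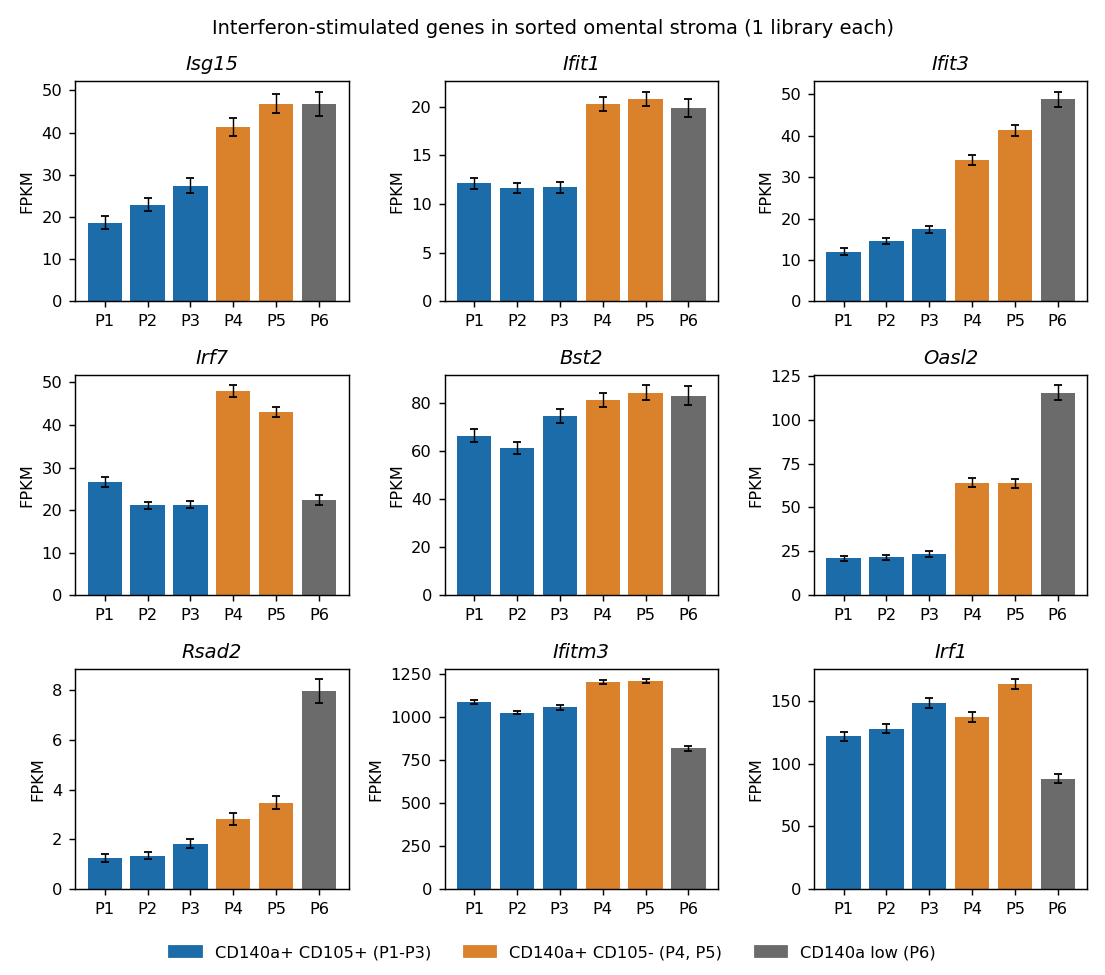
FPKM of each interferon-stimulated gene (vertical axes from 0, each gene on its own scale) in populations P1 to P6, with 1 library per bar and 95% counting intervals as error bars. The CD105- bars of P4 and P5 stand above the CD105+ bars of P1 to P3 for 8 of 9 genes, all but *Irf1*, against 38% of all genes. After division by *Gapdh* this holds for 6 members, without *Bst2* and *Ifitm3*.

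Among the effectors that act on viral RNA and its translation, *Ifit1* (chr19:34640871-34650009, plus strand) encodes a protein that binds foreign 5′ ends of RNA. Its FPKM in P1 to P6 was 12.1, 11.6, 11.7, 20.3, 20.8 and 19.8. The 3 CD105+ libraries lay together at the low end and the other 3 lay together at the high end, with no overlap. *Ifit3* (chr19:34583531-34588731, plus strand), a partner of IFIT1, was at 12.0, 14.5, 17.4, 34.2, 41.4 and 48.9 FPKM. The libraries stood in the order P1 to P6, and each neighbouring step was outside counting error. Its value is uncertain, since 40.7% of the 76-base stretches of its transcript also occur in *Ifit3b*, a near-identical copy. The copy, listed as *I830012O16Rik*, had the same order of populations, at 4.8, 5.82, 7.05, 15.8, 17.6 and 24.7 FPKM.

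*Oasl2* (chr5:114896936-114912234, plus strand) encodes a member of the 2′-5′ oligoadenylate synthetase family, which senses double-stranded RNA. It was at 21, 21.6, 23.5, 64.0, 63.8 and 115 FPKM in P1 to P6. The libraries formed 3 levels, with P1 to P3 low, P4 and P5 in between and P6 high, and counting intervals within the low and middle levels included a ratio of 1 for each neighbouring pair. *Rsad2* (chr12:26442746-26456452, minus strand) encodes viperin, a radical SAM enzyme that makes a chain-terminating nucleotide. It was the lowest member, at 1.23, 1.35, 1.81, 2.81, 3.47 and 7.96 FPKM. P1 and P2 did not differ beyond counting error, and P6 was the highest by 2.26-fold over P5 (2.06 to 2.47).

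*Isg15* (chr4:156199424-156200818, minus strand) encodes a ubiquitin-like protein that is attached to other proteins and is also secreted. Its FPKM was 18.6, 22.9, 27.4, 41.2, 46.9 and 46.7 in P1 to P6. P5 and P6 did not differ beyond counting error (P6 over P5 0.996, 0.920 to 1.08), and P1 was lowest.

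Of the membrane proteins, *Bst2* (chr8:71534255-71537456, minus strand) encodes tetherin, which holds budding virions on the cell surface. It was at 66.5, 61.3, 74.5, 81.2, 84.4 and 83.1 FPKM. P4, P5 and P6 did not differ from one another beyond counting error. *Ifitm3* (chr7:141009586-141010770, minus strand) encodes a protein of endosomal membranes that hinders viral fusion. It was the most abundant member per length in every library, at 1084, 1025, 1054, 1201, 1206 and 816 FPKM. P6 was lowest, and P4 and P5 did not differ beyond counting error.

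Of the transcription factors, *Irf7* (chr7:141262706-141266481, minus strand) drives the amplification of type I interferon genes. Its FPKM was 26.6, 21.1, 21.3, 47.9, 43.1 and 22.3. P4 and P5 stood apart from the other 4 libraries, and P6 did not differ from P2 or P3 beyond counting error. *Irf1* (chr11:53770014-53778374, plus strand), a factor induced strongly by interferon-gamma, was at 122, 128, 148, 137, 163 and 88.0 FPKM. P3 lay above P4, so its CD105+ and CD105- libraries overlapped, and P6 was lowest.

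The comparison across CD105 at matched ALDH gates set P4 against P2 and P5 against P3, pairs that share no library. The gates were matched by ALDH activity, while *Aldh1a2* differed 3.61-fold between P4 and P2. In P4, 4 of 9 members were at least 2-fold above P2, against 7.63% of 12181 genes with at least 1 FPKM in either. *Oasl2* was 2.96-fold higher (2.74 to 3.19), *Ifit3* 2.34-fold (2.20 to 2.50), *Irf7* 2.27-fold (2.15 to 2.39) and *Rsad2* 2.01-fold (1.77 to 2.30). The interval of *Rsad2* included 2, so its place past the threshold was not resolved by counting. *Isg15*, at 1.80-fold (1.65 to 1.97), and *Ifit1*, at 1.74-fold (1.64 to 1.84), stayed under 2-fold with intervals above 1.

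In P5, 3 of 9 members were at least 2-fold above P3, against 6.29% of 12152 genes. *Oasl2* was 2.71-fold higher (2.51 to 2.92), *Ifit3* 2.37-fold (2.23 to 2.51) and *Irf7* 2.02-fold (1.92 to 2.13), so that *Irf7* was also not resolved from 2-fold. *Rsad2* was 1.87-fold (1.66 to 2.1), *Ifit1* 1.77-fold (1.67 to 1.88) and *Isg15* 1.71-fold (1.57 to 1.85) higher. *Oasl2*, *Ifit3* and *Irf7* passed 2-fold in both pairs, as did 5.04% of 12904 genes. The median log2 difference over the 9 members was 0.85 for P4 over P2 and 0.82 for P5 over P3, beside 0.08 and 0.09 over all genes. Levels of P4 and P5 both exceeded P1, P2 and P3 for 8 of 9 members, all but *Irf1*, against 38% of genes. *Bst2*, *Ifitm3* and *Irf1* differed least, by 1.32-fold, 1.17-fold and 1.07-fold for P4 over P2, and turned lower in P4 after division by *Gapdh*, *Irf1* also after quantile normalization. The same division turned these 3 genes lower in P5 than in P3, where they differed by 1.13-fold, 1.14-fold and 1.10-fold as deposited. *Gapdh* itself was at 214 to 224 FPKM in P1 to P3 and at 302 and 326 FPKM in P4 and P5, and this division lowered the median of all genes by 0.47 log2 units for P4 over P2 and by 0.54 for P5 over P3. After it, *Oasl2* alone stayed past 2-fold in P4 and no member did in P5, while *Isg15*, *Ifit1*, *Ifit3*, *Irf7*, *Oasl2* and *Rsad2* remained higher in P4 and P5 under every scaling tried.

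Against P1, the ALDH high population, 4 of 9 members were at least 2-fold higher in P4, against 10.1% of 12055 genes. They were *Oasl2* (3.04-fold), *Ifit3* (2.83-fold), *Isg15* (2.21-fold, 2.01 to 2.45) and *Rsad2* (2.19-fold, 1.90 to 2.52). With median-of-ratios scaling, quantile normalization or division by *Gapdh*, *Oasl2* and *Ifit3* alone stayed past 2-fold in P4 over P1. *Irf7* was 1.80-fold higher. P1 and P4 differed in both CD105 and ALDH gates, and the parts of the 2 gates cannot be told apart in this pair.

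**Figure D2:**
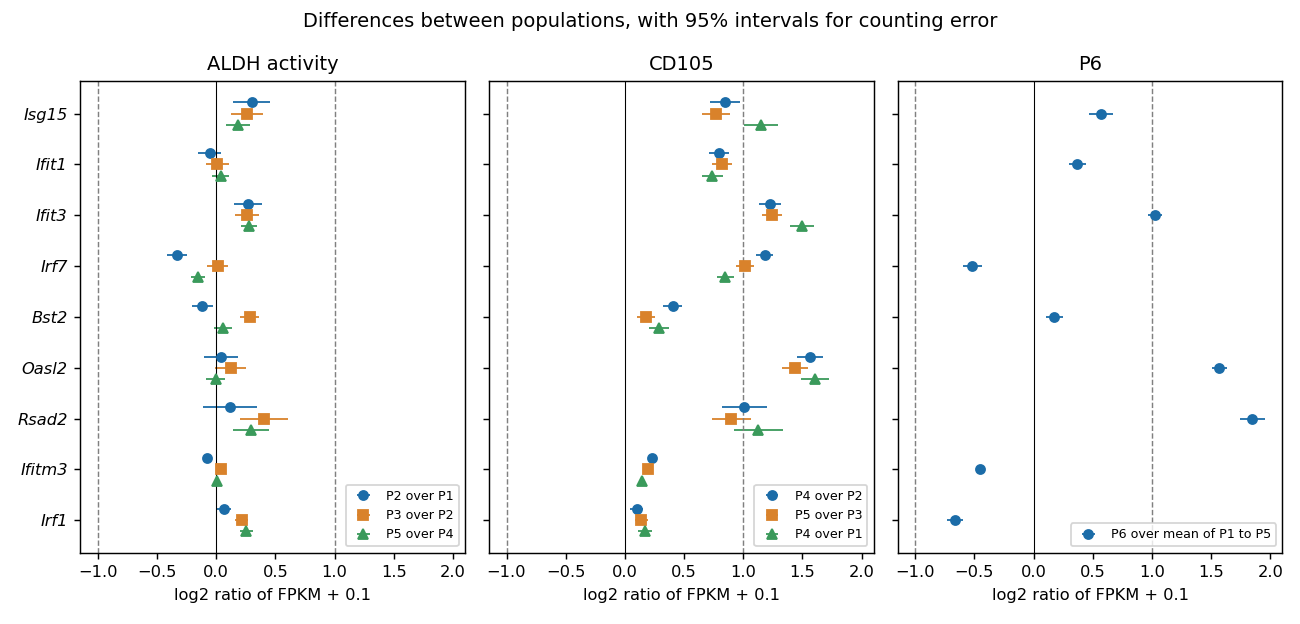
Log2 ratios of FPKM + 0.1 for each member (horizontal axes) between populations of different ALDH activity (left), of different CD105 (middle) and between P6 and the mean of the other populations (right), with 95% counting intervals as bars and dashed lines at 2-fold. Every ALDH ratio lies inside the dashed lines, beyond which few of all genes lay (5.19% for P2 over P1, 3.66% for P3 over P2 and 5.37% for P5 over P4). *Oasl2* and *Ifit3* lie beyond the upper line in all 3 CD105 ratios, of which P4 over P1 also differs in ALDH gate. Of all genes, 7.63% lay beyond it for P4 over P2, 6.29% for P5 over P3 and 10.1% for P4 over P1. Division by *Gapdh* leaves *Oasl2* past 2-fold in P4 over P2 and P4 over P1, and *Ifit3* in P4 over P1 alone. After division by *Gapdh* the CD105 ratios of *Bst2*, *Ifitm3* and *Irf1* fall below 0.

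Along ALDH activity within one CD105 class, no member differed by 2-fold. None of 9 differed 2-fold between P1 and P2, against 5.19% of 11803 genes, or between P2 and P3, against 3.66% of 11980 genes, or between P4 and P5, against 5.37% of 12022 genes. With shares this small, 0 of 9 is close to the share of all genes and does not set the members apart. *Isg15*, *Ifit3* and *Irf1* were nonetheless graded, and the share of all genes graded in this way was not counted. *Isg15* was 1.23-fold higher in P2 than in P1 (1.10 to 1.37), 1.20-fold higher in P3 than in P2 (1.09 to 1.32) and 1.14-fold higher in P5 than in P4 (1.06 to 1.22). *Ifit3* was higher by 1.21-fold, 1.20-fold and 1.21-fold in the same pairs. *Isg15* and *Ifit3* kept these directions under every scaling tried. *Irf1* was higher by 1.05-fold, 1.16-fold and 1.19-fold in the same pairs. With median-of-ratios scaling *Irf1* was instead lower in P2 than in P1. *Irf7* was instead highest in the higher ALDH gate of each class, with P1 1.26-fold above P2 (1.19 to 1.34) and P4 1.11-fold above P5 (1.07 to 1.16).

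In P6, 3 of 9 members were at least 2-fold above the mean of P1 to P5, against 12% of 12625 genes, and 0 of 9 were at least 2-fold below it, against 9.25%. *Rsad2* was 3.61-fold higher (3.35 to 3.88), *Oasl2* 2.97-fold (2.84 to 3.10) and *Ifit3* 2.04-fold (1.96 to 2.13, an interval that included 2). Those 3 genes also exceeded P4 and P5 singly. *Irf7* went the other way, with P4 2.14-fold above P6 (2.02 to 2.28) and P5 1.92-fold above P6 (1.81 to 2.05). *Irf1* and *Ifitm3* were at 0.631 and 0.733 of the mean of P1 to P5.

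The mesothelial markers were higher in P4, P5 and P6 than in P1 to P3. Their summed FPKM over 6 genes was 71.6, 94.4 and 146 in P1 to P3. It was 874 FPKM for P4, 715 FPKM for P5 and 2516 FPKM for P6. Of the 6 markers, 6 were higher in P4 and P5 than in each of P1 to P3, against 38% of all genes. A list of 8 pancreatic acinar transcripts summed to 3.87, 210, 21.7, 1120, 137 and 1658 FPKM in P1 to P6. All 8 were at least 2-fold higher in P4 than P2 and in P5 than P3, as were 5.04% of all genes. The acinar sum was lower in P5 than in P4. Between those libraries *Ifit1*, *Bst2*, *Oasl2* and *Ifitm3* did not differ beyond counting error. *Isg15*, *Ifit3*, *Rsad2* and *Irf1* were higher in P5, and *Irf7* was lower. In P6, where the mesothelial sum was highest, *Ifit3*, *Oasl2* and *Rsad2* were highest, *Irf7* was low, and *Ifitm3* and *Irf1* were lowest. The part of mesothelial cells and of acinar RNA in the members' levels was not tested. In sorted bulk samples a smaller share of expressing cells and less RNA per cell cannot be told apart.

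Leukocyte transcripts were scarce. The 12 markers summed to 13.8 to 52.8 FPKM, with the lowest sums in P4 and P5 and the highest in P6, and *Lyz2*, a myeloid gene, was the largest in every library. *Ptprc*, which encodes CD45, reached at most 0.755 FPKM, *Cd3e* of T cells at most 0.0657 FPKM and *Siglech* of plasmacytoid dendritic cells, known producers of type I interferon, at most 0.0615 FPKM. *Csf1r* of macrophages was at 11.6 FPKM in P6 and at most 1.66 FPKM elsewhere. *Cd68* was at 6.50 FPKM in P6 and at most 2.67 FPKM elsewhere. These were the 2 of 5 tested markers at least 2-fold above the mean of P1 to P5, against 12% of all genes. *Lyz2* was also highest in P6, at 26.6 FPKM. *Emr1*, which encodes the macrophage antigen F4/80, and *Itgam* did not follow them, at 0.204 and 0.308 FPKM in P6 against 0.308 and 0.412 FPKM in P3. Endothelial markers summed to 1.57 to 18.7 FPKM in P1 to P5 and 111 FPKM in P6, mostly *Esam* and *Kdr*, while *Pecam1* and *Cdh5* stayed under 1 FPKM. Adipocyte genes were also higher in P6, where 4 of 5 tested were at least 2-fold above the mean of P1 to P5, against 12% of all genes. *Cfd*, which encodes adipsin, was at 114 FPKM in P6 and at most 0.337 FPKM elsewhere, and *Adipoq*, adiponectin, was at 14.7 FPKM in P6 and at most 0.785 FPKM elsewhere. The part of these cells in the P6 levels was not tested. The 10 immediate-early genes, which respond to tissue dissociation, summed to 9517 to 10742 FPKM. Variation of at least 2-fold between populations was seen in 3 of 10, against 37.4% of all genes. Of the 10, 8 were lower in P4 than in P2 and 8 were lower in P5 than in P3. Their median log2 differences were -0.15 and -0.19. The exceptions in both pairs were *Atf3* and *Ier3*. The level of *Ier3* was 34.4, 48.2, 91.7, 304, 384 and 294 FPKM, low in the CD105+ libraries. *Atf3* and *Fosb* were highest in P6, at 934 and 818 FPKM, from 393 and 378 FPKM in P1. The part of dissociation in the members' levels was not tested.

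**Figure D3:**
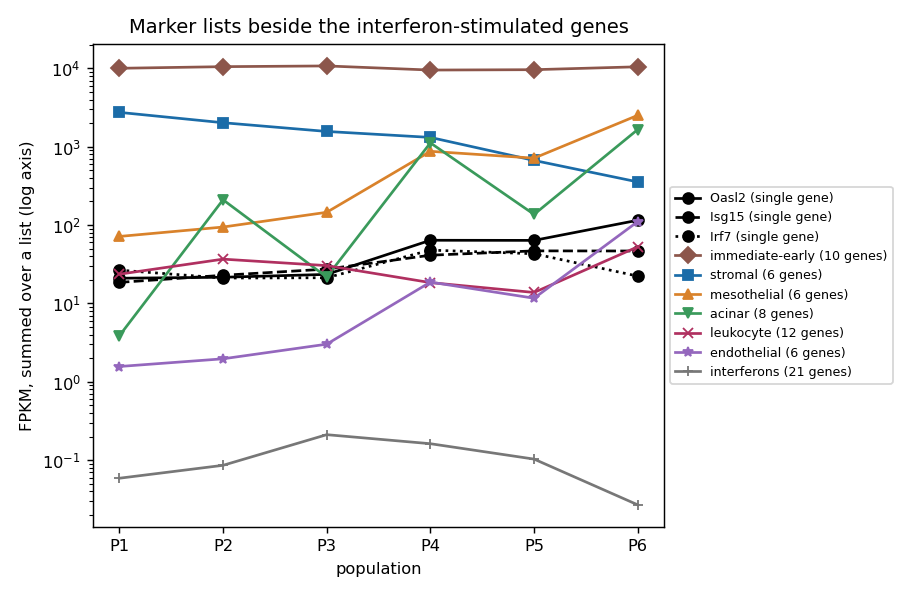
FPKM of *Oasl2*, *Isg15* and *Irf7* (black lines) and summed FPKM of marker lists (coloured lines) in P1 to P6 on a log axis, with 1 library per point. The mesothelial sum is 874 and 715 FPKM in P4 and P5 and 2516 FPKM in P6. The acinar sum is 210 FPKM in P2 and 1120 FPKM in P4, and 21.7 FPKM in P3 and 137 FPKM in P5. Between P4 and P5, *Oasl2* does not differ beyond counting error, *Isg15* is higher in P5 and *Irf7* is lower in P5.

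The interferons themselves were not seen at appreciable levels. Of 21 interferon genes, 0 reached 1 FPKM in any library and their summed FPKM was 0.0269 to 0.211. Most type I genes were listed at 0 throughout. *Ifnb1* was listed at 0.0285 FPKM in P5 and at 0 elsewhere, and *Ifng* reached at most 0.0679 FPKM.

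Of 12 receptor and signal transducer genes, 11 reached 1 FPKM. The exception was *Ifnlr1*, a chain of the type III receptor, at 0.0393 to 0.801 FPKM. *Ifnar2*, a chain of the type I receptor, was at 67.0, 72.7, 76.3, 97.7, 102 and 95.1 FPKM, low in the 3 CD105+ libraries. *Ifngr1*, a chain of the interferon-gamma receptor, was at 95.1, 92.7, 101, 71.8, 65.1 and 44.8 FPKM, high in the 3 CD105+ libraries and lowest in P6. *Jak1*, the kinase shared by these receptors, was highest in P1, at 91.3 FPKM, and lowest in P6, at 36.7 FPKM. Across CD105, 0 of 11 tested receptor and transducer genes passed 2-fold in P4 against P2 or in P5 against P3, where 12.5% and 13.6% of all genes did so in either direction. Their median log2 differences were 0.30 and 0.27.

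Among other antiviral genes, 6 of 31 tested were at least 2-fold higher in P4 than in P2, against 7.63% of all genes, and 1 was lower, against 4.9%. The same numbers, 6 and 1 of 31, held for P5 against P3, where the shares of all genes were 6.29% and 7.33%. The median log2 difference of the list was 0.44 and 0.46 in these pairs. The 3 with the largest ratio in P4 were *Oas3*, *Oas2* and *I830012O16Rik*. *Oas2* was at 3.79, 2.58, 3.06, 8.94, 8.68 and 16.4 FPKM, in the same 3 levels as *Oasl2*. *Oas3* was low throughout, at 0.265 to 0.348 FPKM in P1 to P3 and 1.26 to 1.73 FPKM in P4 to P6. The gene that was lower was *Ifitm1*, a relative of *Ifitm3*, at 9.51, 68.1, 63.8, 10.3, 21.4 and 24.5 FPKM. *Mx1*, a GTPase against influenza virus, reached at most 0.504 FPKM. C57BL/6 mice are known to carry a defective *Mx1*.

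Of the genes that attach or remove ISG15, 4 of 4 were higher in P4 and P5 than in each of P1 to P3 as deposited, against 38% of all genes. Division by *Gapdh* and the other scalings were not tried for this list. In each CD105 pair 1 of 4 was at least 2-fold higher, against 7.63% of all genes for P4 over P2 and 6.29% for P5 over P3. That gene was *Herc6*, the mouse ligase for ISG15, at 4.26, 4.59, 5.81, 10.3, 12.2 and 15.5 FPKM. *Uba7*, the activating enzyme, was at 17.7, 17.8, 19.7, 28.2, 27.0 and 35.6 FPKM. *Usp18*, which removes ISG15 and restrains the type I receptor, varied least, between 5.62 and 7.04 FPKM. It was at 6.70 FPKM in P3 and 6.98 FPKM in P4.

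Of 18 tested genes known mainly as interferon-gamma targets, 5 were at least 2-fold higher in P4 than in P2 and 0 were lower, and 4 were higher and 2 lower in P5 than in P3, beside the same shares of all genes. The 2 lower genes are close to the 7.33% of all genes. The median log2 difference of the list was 0.75 for P4 over P2 and 0.72 for P5 over P3. *Gbp2*, a guanylate-binding protein, was at 40.2, 41.9, 43.8, 98.1, 96.0 and 150 FPKM, again with P1 to P3 low and P6 high. *Gbp4* was at 1.99, 2.73, 4.74, 9.29, 11.8 and 7.23 FPKM. *Tgtp1* and *Tgtp2*, near-identical GTPase genes whose reads may be split uncertainly, ran from 1.89 to 15 and from 2.86 to 17.9 FPKM. The 2 genes lower in P5 were *Socs1*, the feedback inhibitor of JAK kinases, and *Cxcl9*, a T cell chemokine. *Socs1* was at 244, 159, 167, 95, 36.1 and 11.7 FPKM, highest in P1 and lowest in P6, where *Oasl2* was highest. *Cxcl9* was at 9.77, 5.85, 9.34, 3.58, 1.38 and 0.230 FPKM. *Cxcl10* was at 86.2, 79.5, 141, 114, 176 and 22.6 FPKM, without a CD105 split and lowest in P6.

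**Figure D4:**
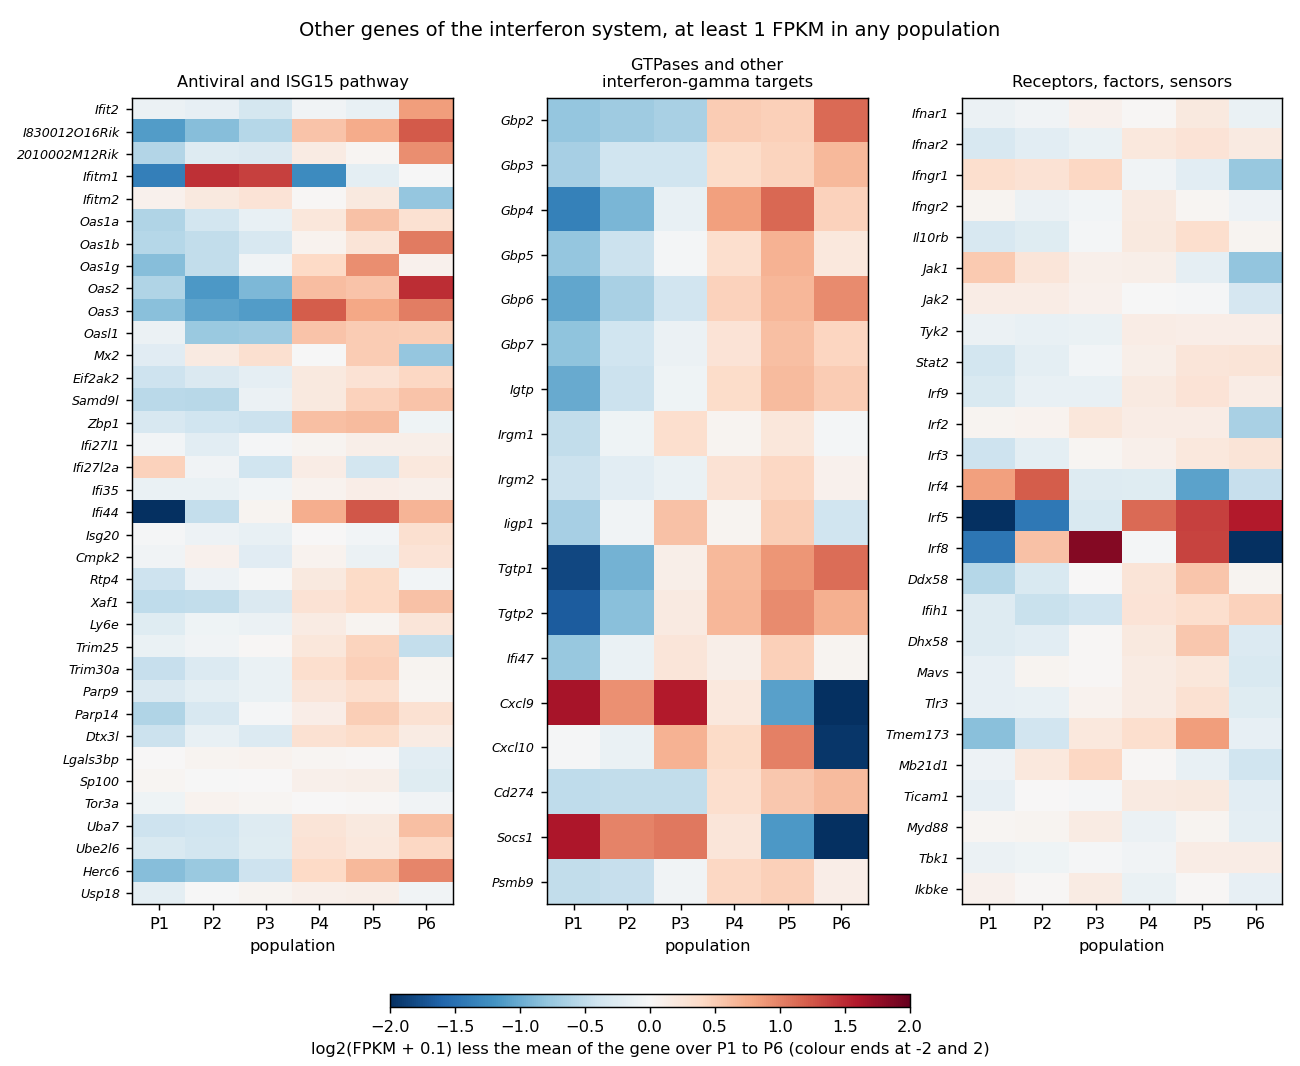
Log2(FPKM + 0.1) of other interferon-system genes less each gene's own mean over the 6 libraries (colour, ending at -2 and 2), with populations as columns and genes at 1 FPKM or more in any library as lines, apart from a gene not reported here. P4 and P5 both exceed P1 to P3 in 23 of 32 antiviral genes, 4 of 4 ISG15 pathway genes and 12 of 18 interferon-gamma targets as deposited, against 38% of all genes, and *Socs1* and *Cxcl9* are lower in P4 and P5 than in each of P1 to P3.

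The sensors of viral nucleic acid had median log2 differences of 0.24 for P4 over P2 and 0.22 for P5 over P3. None of 10 tested in P4 against P2 and none of 11 in P5 against P3 passed 2-fold, against 12.5% and 13.6% of all genes in either direction, a difference of about 1 gene at this list size. Of 11 that reached 1 FPKM, 7 were higher in P4 and P5 than in each of P1 to P3 as deposited, against 38% of all genes. *Ddx58*, which encodes RIG-I, was at 12.8, 15.3, 19.2, 22.8, 27.9 and 19.7 FPKM. *Tmem173*, which encodes STING, was at 10.1, 13.8, 20.9, 22.7, 32.4 and 16.1 FPKM. Both were highest in P5 and lowest in P1.

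The members did not share a single profile. Taking log2 levels over the 6 libraries, *Ifit3*, *Ifit1* and *Isg15* followed the mean of the other 8 members most closely, with Pearson r of 0.977, 0.977 and 0.974. *Bst2* (0.925), *Oasl2* (0.919) and *Rsad2* (0.801) came next. *Irf7* (0.529), *Ifitm3* (-0.06) and *Irf1* (-0.16) did not follow it. These values describe 6 libraries, and all genes share the depth of each library. Of 2335 other genes with a mean of at least 5 FPKM and a 2-fold range, the one most like the members' mean was *Cd151* (r of 0.999), a tetraspanin, at 112, 116, 138, 224, 244 and 235 FPKM. Next came *Wfdc1* (0.998), *Nxnl2*, *B4galt6*, *Ilvbl*, *Abhd2*, *Lgi3*, *Ptgis*, *Dopey2* and *Dhx32*. Such likeness was common, since 21.3% of these genes had r of at least 0.9.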

How the data were processed

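RNA from sorted omental cells was purified with RNeasy Micro kits, made into NEBNext Ultra libraries and sequenced on an Illumina NextSeq instrument as single-end reads of 76 nt. The authors deposited 1 table of FPKM per population. The submitters' processing notes name TopHat2 2.0.7, Cufflinks 2.1.1 and mm10. The annotation, any filter and pooling of mice are not given in the sources used here. FPKM split by transcript models can depend on how shared reads were assigned. In each library, 495 lines repeated a symbol and were summed.

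Differences were ratios of FPKM + 0.1, and a gene was called at 2-fold among genes with at least 1 FPKM on either side. P6 was set against the mean of P1 to P5. Reads were estimated from FPKM steps in genes with 1 GENCODE M21 transcript of at least 800 nt, less a fragment of 200 nt. Low values came within 0.05 of a whole read in 41.1% to 59.2% of cases, against 10% by chance, so no count test was run. Counting intervals used the estimated reads and the median coding transcript length, which is short for *Oasl2* and *Irf1* and widens their intervals. Calls were tested on simulated data. Other scalings, thresholds, pseudocounts and handling of repeated symbols were tried. Promoters came from RefSeq. A listed gene is not reported here.

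The members and gene lists were chosen with earlier results of these data known. All members were named. For other lists, counts were given with up to 5 genes of highest FPKM and up to 3 called each way with the largest ratio, and genes named beyond these were chosen after their values were seen. The 10 genes most like the members' mean profile were named by Pearson r. Python 3.11.15, numpy 2.4.6, pandas 2.3.3 and matplotlib 3.10.9 were used.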

Additional observations from a re-analysis of the deposited data

How the results depend on the processing

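No paired analysis was possible because there was 1 library per population and no replicate number. Of 98 counts of members recomputed under alternatives, 87 stayed within 1.5 times the reported count and 11 moved. With a 3-fold threshold the number of members called was 0 for P4 over P2, 0 for P5 over P3, 1 for P4 over P1, 1 for P6 over the mean of the others and 3 for the highest over the lowest population, since the threshold itself was stricter. With a 1.5-fold threshold 6 members were called for P5 over P3. After division by *Gapdh* the counts were 1 for P4 over P2, 0 for P5 over P3 and 2 for P4 over P1. For P4 over P1 the count was also 2 with median-of-ratios scaling and 2 with quantile normalization. These scalings lowered the median of all genes for P4 over P1 by 0.50 (*Gapdh*), 0.17 (median of ratios) and 0.21 (quantile) log2 units. P4 and P5 both exceeded P1 to P3 in 8 members as deposited or at a common sum and in 6 after division by *Gapdh*. The count was 7 with median-of-ratios scaling, without *Ifitm3*, and 7 with quantile scaling, without *Bst2*. These alternatives were chosen after seeing the data. Of 558 recomputed ratios of single members, 27 changed sign, all of differences under 2-fold, and none that had been called reversed. *Rsad2*, at 1 to 8 FPKM, is the member most limited by depth.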

Other observations

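Other interferon regulatory factors had profiles of their own. *Irf5*, a factor of myeloid and B cell responses, was at 1.5, 2.98, 6.59, 18.1, 21.3 and 24.8 FPKM in P1 to P6. It was low in the CD105+ libraries and high in the others. *Irf8*, a factor of myeloid cells, was instead at 1.71, 7.23, 17.4, 4.69, 12.4 and 0.905 FPKM. Within each CD105 class *Irf8* was higher in the lower ALDH gate, and it was lowest in P6. *Irf3*, the factor activated by nucleic acid sensors, ran from 21.2 FPKM in P1 to 34.0 FPKM in P6. These genes were named after their values were seen.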
